A study of Mus musculus with 6 samples.

Results

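A group of 10 marker genes of the lung epithelium was followed in MLE-12 cells, namely 6 markers of alveolar type 1 (AT1) cells (Ager, Aqp5, Pdpn, Cav1, Cav2 and Rtkn2), 3 markers of club cells (Scgb1a1, Scgb3a2 and Cyp2f2) and Foxj1, a marker of ciliated rather than club cells. They were chosen by gene name and are 10 of the 34745 genes of the deposited table. RNA was sequenced from 3 libraries of MLE-12 cells transfected with an NR4A1 overexpression plasmid and from 3 libraries of MLE-12 cells transfected with the empty pCMV-SPORT6 vector. MLE-12 is a single immortalized line of mouse lung epithelial cells, made from a tumour in which the promoter of a surfactant gene drives a viral large T antigen, so both groups share the T antigen, the transfection reagent and the plasmid backbone. The NR4A1 insert is the only labelled difference. The comparison asks whether overexpression of NR4A1, an orphan nuclear receptor, changed the level of these markers, and the level of each marker in the line is given beside it.

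In the lung, AT1 cells are thin, flat cells that cover most of the alveolar surface and allow gas exchange, and AT2 cells make surfactant and can give rise to AT1 cells. Club cells line the bronchioles, secrete proteins such as uteroglobin and hold cytochrome P450 enzymes, while ciliated cells beside them move mucus. Marker genes of these cells are used to tell which program an epithelial cell runs, although Cav1, Cav2 and Pdpn are also made by endothelial, mesothelial or fibroblastic cells.

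The 10 genes fell into 2 sets. All 6 AT1 markers were counted in every library, whereas the 3 club cell markers were at 0 in 5 libraries and Foxj1 had between 7 and 13 counts per library. With NR4A1 overexpression, 0 of the 7 members that could be tested were called, next to 0.17% of all genes tested called higher and 0% called lower. The promoters of 3 of them are printed because they span the range of levels. The RefSeq bases before the start of Cav2 (the most abundant member), of Ager (the member with the smallest p) and of Cyp2f2 (which was barely counted) are given 5′ to 3′ on the GRCm38.p6 build, with each CG dinucleotide in capitals. They cover chr6:17280935-17281184, chr17:34597600-34597849 and chr7:27119705-27119908, all on the plus strand.
Cav2: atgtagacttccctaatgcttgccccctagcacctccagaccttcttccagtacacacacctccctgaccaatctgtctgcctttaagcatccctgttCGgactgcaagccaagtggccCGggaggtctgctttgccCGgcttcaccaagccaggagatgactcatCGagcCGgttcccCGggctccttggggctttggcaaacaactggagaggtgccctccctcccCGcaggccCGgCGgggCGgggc
Ager: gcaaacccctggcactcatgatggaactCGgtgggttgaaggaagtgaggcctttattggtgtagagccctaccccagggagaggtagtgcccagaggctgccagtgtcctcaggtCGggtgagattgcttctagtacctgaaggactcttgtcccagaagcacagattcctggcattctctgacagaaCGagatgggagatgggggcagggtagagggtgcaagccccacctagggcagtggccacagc
Cyp2f2: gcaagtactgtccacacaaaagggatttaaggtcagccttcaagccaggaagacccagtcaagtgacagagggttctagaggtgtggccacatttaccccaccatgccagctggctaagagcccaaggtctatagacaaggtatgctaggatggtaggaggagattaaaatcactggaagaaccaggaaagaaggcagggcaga

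These windows differ in their CG content. The 250 bases upstream of a start hold a median of 6 CG dinucleotides over 32851 RefSeq promoters. The Cav2 window holds 10, and 62.2% of the promoters hold fewer. The Ager window holds 3, and 29% hold fewer. The 250-base Cyp2f2 window, chr7:27119705-27119954, holds 0. Its RefSeq start lies past the deposited gene start at 27119909, and only the 204 bases before the deposited start are printed above. Among the other members with an entry, Aqp5 had 38 (98.1% of promoters hold fewer), the 2 starts of Cav1 had 10 and 12, and Pdpn had 2. Part of the Aqp5 window, chr15:99590778-99591027, also lies past the deposited gene start at 99590849. By their RefSeq windows, the counted AT1 markers with an entry have both CG-rich and CG-poor promoters. The letters AAAGGTCA, the NBRE element that NR4A receptors bind as monomers, were searched on both strands from 250 bases before to 50 bases after each start. They were absent from all 7 windows of the 6 members with an entry, and 495 of the 32851 windows (1.51%) hold them. Rtkn2, Scgb1a1, Scgb3a2 and Foxj1 were not part of this promoter comparison.

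The total count per library was between 15019038 and 17574340. A limit of 3 counts, taken as the most that 0 counts still allow, was worth between 0.171 and 0.2 CPM, a count scaled to the total of its library. These limits cover counting error only. Nr4a1 itself had 50660, 60093 and 68555 counts in NR4A1 overexpression replicates 1, 2 and 3 and 428, 510 and 463 counts in the vector controls. The fitted log2 difference was 7.07 (SE 0.136, adjusted p = 2.13e-06, edgeR quasi-likelihood test with Benjamini-Hochberg adjustment). NR4A1 overexpression replicate 2 stood apart from the other libraries on the first principal component (score 57.4 against −20.8 to 2.24, 46% of the variance). It also held RNA of genes that mark other cell types, and the members were also fitted without it. Of 12941 genes that passed the filter on low counts, 22 (0.17%) were called higher with NR4A1 overexpression at an adjusted p under 0.05 and at least 2-fold, and 0 (0%) were called lower by edgeR. Without that threshold, 520 genes (4.02%) were higher and 316 (2.44%) lower at an unadjusted p under 0.05, or 836 (6.46%) in either direction. The labels used here number the libraries in each group but do not state that they came from separate cultures. The p-values therefore measure the spread between these libraries, which may be technical.

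Ager, which encodes the receptor for advanced glycation end products (RAGE), is a widely used marker of AT1 cells and lies at chr17:34597862-34600936 on the plus strand of GRCm38. It had 1228, 1483 and 1438 counts in NR4A1 overexpression replicates 1 to 3 and 1740, 2050 and 1832 counts in vector control replicates 1 to 3. These counts corresponded to 13.5, 14.5 and 13.7 FPKM, a count scaled to gene length and library total, with NR4A1 and to 16.7, 20.5 and 17.3 FPKM with vector. Every NR4A1 library was below every vector control, with group means of 13.9 ± 0.51 and 18.2 ± 2.03 FPKM (SD, n = 3 libraries each). The log2 fold change was −0.36 (SE 0.095, 95% interval −0.58 to −0.14), that is 0.779 times the vector level. Its unadjusted p was 0.00642 and its adjusted p 0.414 in the edgeR quasi-likelihood test with Benjamini-Hochberg adjustment over all genes tested, so Ager did not pass the test. Among all genes tested, 805 (6.22%) likewise had every NR4A1 library below every vector control. Ager was the 1 member of the 7 tested with this order of libraries, and the 1 member with an unadjusted p under 0.05, which 6.46% of all genes tested had. With NR4A1 overexpression replicate 2 left out, Ager had a log2 fold change of −0.39 (adjusted p = 0.42). Its neighbours lie close by, with Pbx2 462 bases away on one side and Rnf5 155 bases away on the other. Both are expressed at a like level, Pbx2 at 17 FPKM and Rnf5 at 18 FPKM, and their log2 fold changes were −0.05 and −0.07. Ager is on the plus strand, as is Pbx2, and Rnf5 is on the minus strand. Whether the counting used strand is not given in the sources used here, and no stretch of 50 bases of the Ager transcripts was found in another gene.

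Aqp5, a water channel of the apical membrane of AT1 cells, lies at chr15:99590849-99594829. It was listed at 46.4, 41.9 and 36.8 FPKM with NR4A1 and at 48.9, 41.6 and 39.8 FPKM with vector. The 2 groups overlapped, with means of 41.7 ± 4.81 and 43.4 ± 4.83 FPKM, and the highest and lowest libraries of each group were further apart than the group means. Its log2 fold change was −0.04 (SE 0.12, 95% interval −0.32 to 0.25, adjusted p = 0.976, edgeR quasi-likelihood test), and its sign changed when NR4A1 overexpression replicate 3 (0.04) or vector control replicate 1 (0.06) was left out. Aqp5 sits between 2 other aquaporin genes that were not expressed. Aqp2 had 0 counts in every library, and Aqp6 had between 0 and 2 counts.

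Pdpn encodes podoplanin, a mucin-type glycoprotein of the AT1 surface that is also made by lymphatic endothelium and mesothelium, and lies at chr4:143267431-143299564 on the minus strand. Its level was 16.5, 20.4 and 17.2 FPKM with NR4A1 and 18.3, 19.9 and 18.4 FPKM with vector. NR4A1 overexpression replicate 2 was the highest library and NR4A1 overexpression replicate 1 the lowest, so the vector controls lay inside the range of the NR4A1 group. Pdpn had a log2 fold change of −0.04 (SE 0.101, 95% interval −0.28 to 0.20, adjusted p = 0.973, edgeR quasi-likelihood test). It was −0.14 (adjusted p = 0.662) without NR4A1 overexpression replicate 2 and 0.01 without NR4A1 overexpression replicate 1.

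Cav1 and Cav2 encode caveolins, the membrane proteins that form the coat of caveolae, small pits that are dense in the plasma membrane of AT1 and endothelial cells. The genes lie 17220 bases apart on the plus strand of chromosome 6, Cav2 at chr6:17281185-17289115 and Cav1 at chr6:17306335-17341452. Cav1 was listed at 8.24, 9.40 and 10.3 FPKM with NR4A1 and at 14, 10 and 10.5 FPKM with vector. A single library, vector control replicate 1, lay above the rest, and the other 5 libraries lay between 8.24 and 10.5 FPKM. The log2 fold change of Cav1 was −0.28 (SE 0.15, 95% interval −0.63 to 0.07, adjusted p = 0.83, edgeR quasi-likelihood test). Leaving out vector control replicate 1 moved it to −0.11. Cav2 was listed at 65.9, 52.9 and 55.6 FPKM with NR4A1 and at 63.5, 61.8 and 62.6 FPKM with vector. The vector libraries of Cav2 lay within a narrow band (62.6 ± 0.868 FPKM), while the NR4A1 libraries spread on both sides of it (58.1 ± 6.9 FPKM). Cav2 had a log2 fold change of −0.09 (SE 0.0975, 95% interval −0.32 to 0.14, adjusted p = 0.932, edgeR quasi-likelihood test). It was −0.19 (unadjusted p = 0.0246, adjusted p = 0.723) without NR4A1 overexpression replicate 1. Gm15581, a gene annotated on the opposite strand across both caveolin genes, had between 0 and 1 counts.

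Rtkn2, whose transcript marks AT1 cells, lies at chr10:67979570-68059740. Its level was 4.14, 2.59 and 3.22 FPKM with NR4A1 and 3.70, 3.06 and 3.87 FPKM with vector. NR4A1 overexpression gave both the highest and the lowest library, and the groups overlapped. The log2 fold change was −0.07 (SE 0.181, 95% interval −0.50 to 0.35, adjusted p = 0.974, edgeR quasi-likelihood test), and it was 0.08 without NR4A1 overexpression replicate 2. A share of 2.69% of the 50-base stretches of Rtkn2 transcripts is also found in other genes.

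**Figure D1:**
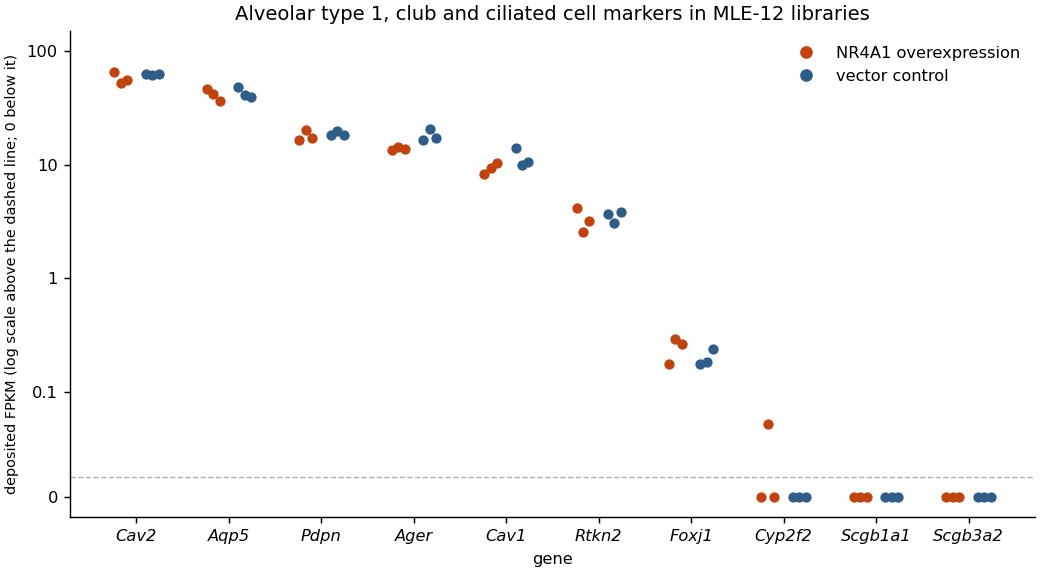
FPKM of the members in each of the 6 libraries, shown as single points and grouped as NR4A1 overexpression and vector control. The AT1 markers lie between 2.59 and 65.9 FPKM in every library, whereas Foxj1 stays below 0.3 FPKM and the club cell markers are at or next to 0.

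For all 6 AT1 markers the fold change and its 95% interval lay within 2-fold in either direction. The share of all genes tested with such an interval was 85.5%, so this precision is that of most genes in these libraries. The median log2 fold change of the 7 members tested was −0.07 against 0.01 for all genes tested. The sign for Aqp5, Pdpn and Rtkn2 changed when a single library was left out. In 5 of the 6 AT1 markers the 2 groups overlapped. Among all genes tested, 6.22% had every NR4A1 library below every vector control and 6.69% had every one above. In bulk RNA, fewer cells with a marker and less of it per cell cannot be told apart.

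**Figure D2:**
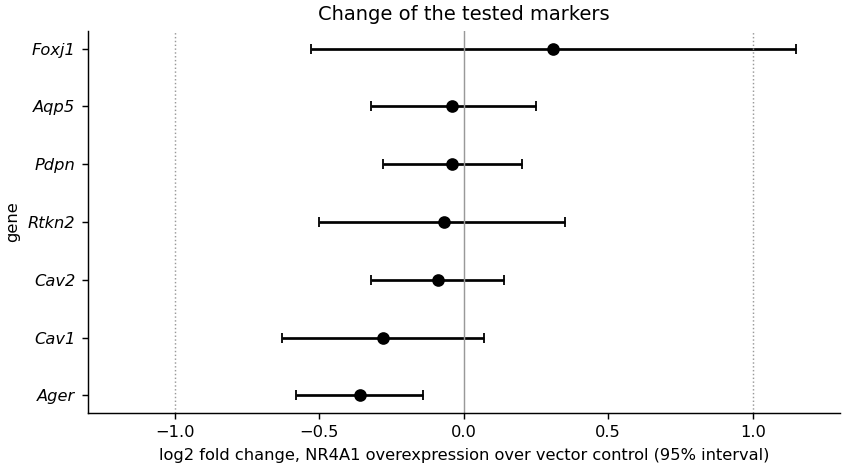
Log2 fold change (NR4A1 overexpression over vector control) of the 7 members tested, with the 95% interval from the edgeR quasi-likelihood fit. Ager, at −0.36, has an interval that does not include 0 before adjustment, and the interval of Foxj1 is the widest, from −0.53 to 1.15.

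The AT1 markers were expressed at unequal levels. Over the 6 libraries, the mean FPKM was 60.4 for Cav2, 42.5 for Aqp5, 18.5 for Pdpn, 16.1 for Ager, 10.4 for Cav1 and 3.43 for Rtkn2. Among 10922 genes with a mean of at least 1 FPKM, this placed Cav2 above 93.7% of genes, Aqp5 above 90.4%, Pdpn above 75.2%, Ager above 71.7%, Cav1 above 58.9% and Rtkn2 above 24.5%. Cav2, Aqp5 and Pdpn had ranges over libraries that did not overlap with each other. Pdpn was above Ager in 5 of 6 libraries, with overlapping ranges, and Ager was above Cav1 in 6 of 6 libraries although the ranges of these genes also overlapped.

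This order depends on the gene length by which the authors divided the counts. From the deposited counts and FPKM, the length used for Ager was 6035 bases, while its exons cover 2141 bases once overlapping exons are merged, a ratio of 2.82. The length used for Ager also exceeds the distance between the start and the end of the gene. Across 8044 genes whose length could be compared, 7156 (89%) had an FPKM length within 1% of the sum of all distinct exons over transcripts, in which overlapping exons are counted repeatedly, and 736 (9.15%) had one within 1% of the merged exons. The ratio of the 2 lengths was 2.45 for Cav1, 2.42 for Rtkn2, 1.32 for Cav2, 1.2 for Pdpn and 1.03 for Aqp5, and its median over all compared genes was 1.37. Genes with many overlapping isoforms are thus listed lower than their reads per base. On the merged-exon length (an alternative added after the data had been seen), the means were 79.7 FPKM for Cav2, 45.2 for Ager, 43.8 for Aqp5, 25.5 for Cav1, 22.1 for Pdpn and 8.3 for Rtkn2. On this scale Ager lay above 90.6% of 11142 genes with at least 1 FPKM. Ager and Aqp5 could not be ordered, since Ager was higher in 3 of 6 libraries, and Cav1 was above Pdpn in 5 of 6 libraries with overlapping ranges. The deposited gene model of Aqp5 differs from the GENCODE M21 model that gave the merged length, and the other 9 members have the same coordinates in both. The length is the same in every library, so comparisons between the groups are not affected by it.

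**Figure D3:**
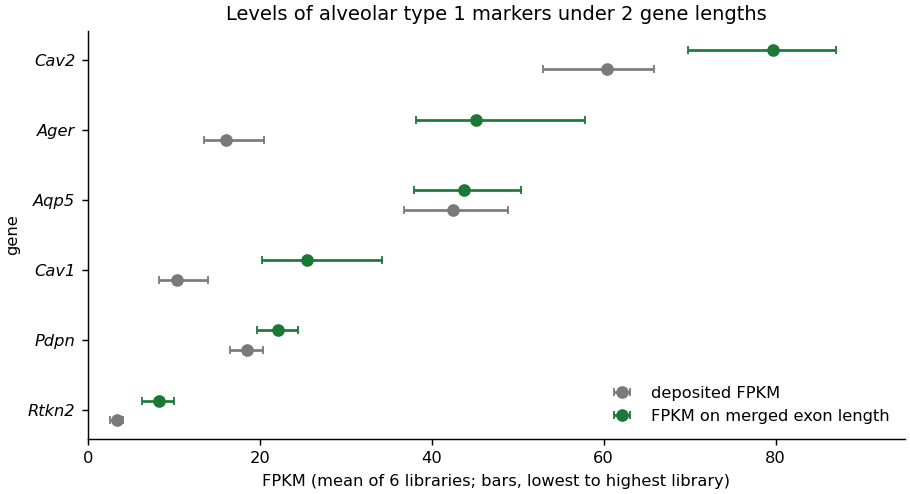
Mean FPKM of the 6 AT1 markers over the 6 libraries with the deposited gene length and with the length of merged exons, bars running from the lowest to the highest library. Ager moves from 16.1 to 45.2 FPKM and Cav1 from 10.4 to 25.5 FPKM, while Aqp5 hardly moves.

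The club cell markers were not detectable at this depth. Scgb1a1, which encodes uteroglobin, the main secreted protein of club cells (chr19:9083636-9087958), had 0 counts in all 6 libraries, which allows up to 0.2 CPM in the shallowest library. Per length of its merged exons, the limit of 3 counts was between 0.359 and 0.42 FPKM. Scgb3a2, a secretoglobin of the same family, also had 0 counts in all 6 libraries, with a limit between 0.194 and 0.227 FPKM. Cyp2f2, a cytochrome P450 that activates naphthalene in club cells (chr7:27119909-27133660), had 2 counts in NR4A1 overexpression replicate 2 and 0 in the other 5 libraries. Both of these counts are under the limit of 3, and 9% of the 50-base stretches of Cyp2f2 transcripts are shared with Gm15883, a gene annotated on its opposite strand. None of the 3 genes entered the test, and no fold change is given for them. Their neighbourhoods were not uniformly without reads. Ahnak, 6717 bases from Scgb1a1, was at 76.5 FPKM, while Cyp2a12 and Cyp2t4, the genes on either side of Cyp2f2, had 0 counts.

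Foxj1 encodes the transcription factor that switches on the program of motile cilia and lies at chr11:116330704-116335399. It had 7, 13 and 12 counts with NR4A1 and 8, 8 and 11 counts with vector, or between 0.177 and 0.293 FPKM. The groups overlapped, and the log2 fold change was 0.31 (SE 0.357, 95% interval −0.53 to 1.15, adjusted p = 0.934, edgeR quasi-likelihood test), or 0.17 without NR4A1 overexpression replicate 2. This interval includes no change and a 2-fold increase, but not a 2-fold decrease. Rnf157, 954 bases away on the same strand, was at 5.39 FPKM.

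Other genes of the same cell types were read from lists written with earlier results of these data known. Their levels are on the deposited length, and on merged exons some orders turn. There Emp2 (92.5 FPKM) is below Gprc5a (108), S100a1 (98.2) is above Adam10 (83.1), Ehd2 (48.3) is above Prkcdbp (38.9) and Rfx2 (1.28) is below Tppp3 (3.26). Of 20 further AT1 markers, 18 were tested, 15 had a mean of at least 1 FPKM and 0 were called in either direction, with a median log2 fold change of −0.04. The 3 most abundant by deposited FPKM were Emp2, a tetraspan membrane protein, at 233 FPKM, Gprc5a, an orphan receptor of AT1 cells, at 108 FPKM, and Ahnak, a large scaffold protein, at 76.5 FPKM. Emp2 was the only gene of the list with every NR4A1 library below every vector control, at a log2 fold change of −0.11 (adjusted p = 0.854, edgeR). Timp3, an inhibitor of metalloproteinases named after its values were seen, was the 1 gene with every NR4A1 library above every vector control, at 0.26 (95% interval 0.04 to 0.47, unadjusted p = 0.024, adjusted p = 0.671, edgeR). These counts of 1 in each direction stand beside 6.22% and 6.69% of all genes tested. Cldn18, the claudin of alveolar tight junctions, had 0 counts in all libraries. Hopx, a homeodomain protein named here after its values were seen since it is a widely used AT1 marker, was at 20.5 ± 5.52 FPKM with NR4A1 and 23.4 ± 5.19 FPKM with vector. Besides Cldn18, the list had Scnn1g, an epithelial sodium channel subunit, at no more than 3 counts per library, and Krt7 (0.424), Spock2 (0.136) and Akap5 (0.124) under 1 FPKM, so 5 of the 20 genes did not reach that level.

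Of 25 further club cell genes, 13 were tested and 0 called, 6 had 0 counts in all libraries and 9 had a mean of at least 1 FPKM. Those 9 were led by Gsta4, a glutathione transferase (49.9 FPKM), Selenbp1, a selenium-binding protein (23.7 FPKM), and Por, the reductase that serves all microsomal P450 enzymes (17.5 FPKM), which are made in many cell types besides club cells. The rest of the 9, named after their values were seen, were Aldh1a1 (16.5 FPKM), the airway mucin Muc5b (8.74), Cbr2 (3.49), Cyp4b1 (3.17), Aldh1a7 (2.66) and Lypd2 (1.74). Of the 13 tested, 3 had an unadjusted p under 0.05, against 6.46% of all genes tested. They were Muc5b, Aldh1a7 and Ces1d, with log2 fold changes of 0.63, 0.54 and −1.07 (adjusted p = 0.694, 0.735 and 0.74, edgeR quasi-likelihood test). Ces1d rests on few counts, 15, 7 and 7 with NR4A1 and 19, 19 and 28 with vector (mean 0.299 FPKM). The secretoglobin Scgb3a1 and the P450 Cyp2a5 were at 0. Of 30 genes of motile cilia, 10 were tested and 0 called, and 3 had a mean of at least 1 FPKM, namely the transcription factors Rfx2 (2.79 FPKM) and Rfx3 (1.97 FPKM) and the tubulin-binding protein Tppp3 (2.20 FPKM). Mcidas and Gmnc, the geminin relatives that act before Foxj1 in multiciliated cells, had 0 counts in every library. Rfx2 had 103, 121 and 156 counts with NR4A1 and 187, 199 and 179 with vector, with a log2 interval of −0.87 to −0.13 and an adjusted p of 0.582 (edgeR). The AT2 markers, as the identity the line is known for, were incomplete as well. Sftpc, the surfactant protein C precursor, was at 90.1 FPKM, the phospholipid enzyme Lpcat1 at 15.6 FPKM and the lipid transporter Abca3 at 11.2 FPKM, while Sftpa1 and Slc34a2 had 0 counts. Lpcat1 and Sftpb had every NR4A1 library below every vector control (log2 fold change −0.32 and −0.27, adjusted p = 0.868 and 0.802, edgeR). Etv5 had every NR4A1 library above every vector control (0.30, unadjusted p = 0.006, adjusted p = 0.402, edgeR). Of all genes tested, 6.22% and 6.69% showed these orders. Sftpb and Etv5 were named after their values were seen. Of 12 AT2 markers 7 were tested and 0 called, and 6 had a mean of at least 1 FPKM. Besides Sftpa1 and Slc34a2, those under 1 FPKM were Napsa (0.648), Lyz2 (0.263), Lamp3 (0.0713) and Sftpd (0.0167).

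Many of the listed partners of the members, but not all, were expressed along with them. Of 10 genes of the caveola coat and its neck, 8 were tested and 8 had a mean of at least 1 FPKM. Sdpr (Cavin2), Ptrf (Cavin1) and Prkcdbp (Cavin3), the cavins that assemble on caveolins, were at 90.6, 83.4 and 62.4 FPKM, whereas the muscle forms Cav3 and Murc (Cavin4) had at most 1 and 6 counts. Sdpr had 4787, 6848 and 5266 counts with NR4A1 and 3787, 3272 and 3798 with vector, so every NR4A1 library was above every vector control (112 ± 17.8 against 69.1 ± 3.95 FPKM), an order that 866 of all genes tested (6.69%) showed. Its log2 fold change was 0.72 (SE 0.121, 95% interval 0.43 to 1.0, adjusted p = 0.107, edgeR quasi-likelihood test), which did not pass the test, although DESeq2 gave an adjusted p of 3.11e-05 and edgeR's exact test one of 0.000247, both under 0.05 but at less than 2-fold. It was 0.58 (adjusted p = 0.0656) without NR4A1 overexpression replicate 2. Ptrf and Prkcdbp had overlapping groups, with log2 intervals of −0.33 to 0.26 and −0.49 to 0.18.

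RAGE binds S100 proteins and the chromatin protein HMGB1 and is shed by Adam10. Of the 10 of 11 ligands and partners that were in the table (Diaph1 was not analysed here), 8 were tested and 0 called. They were led by deposited FPKM by S100a11 (224 FPKM), S100a6 (158 FPKM) and Adam10 (65.4 FPKM). The ligands S100a8 and S100a9 had 0 counts in every library. S100a4, named after its values were seen, had 475, 1680 and 493 counts with NR4A1 and 305, 186 and 202 with vector. NR4A1 overexpression replicate 2 was far above the others. Its log2 fold change was 2.0 (adjusted p = 0.372, edgeR quasi-likelihood test), and it was 1.18 (adjusted p = 0.114) without that library. Podoplanin has its ligand and its cytoskeletal linkers in the list of 7 partners, of which 6 were tested and 0 called. Cd9 (259 FPKM), Ezr (127 FPKM) and Msn (77.4 FPKM) were the most abundant, while the podoplanin receptor of platelets, Clec1b, was the 1 gene at 0 in all libraries. Cd44, a hyaluronan receptor that associates with podoplanin and was also named after its values were seen, had 1624, 1842 and 1608 counts with NR4A1 and 1228, 1110 and 1188 with vector. Its log2 fold change was 0.61 (SE 0.0932, 95% interval 0.39 to 0.83, adjusted p = 0.0734, edgeR quasi-likelihood test), also short of the threshold. The adjusted p was 2.58e-05 with DESeq2 and 0.00183 with edgeR's exact test, again at less than 2-fold, and without NR4A1 overexpression replicate 2 the quasi-likelihood fit gave 0.57 (adjusted p = 0.118). Of 11 other aquaporins, Aqp1 alone had a mean of at least 1 FPKM (53.2 FPKM), next to Aqp3 at 0.760 and Aqp11 at 0.176 FPKM.

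**Figure D4:**
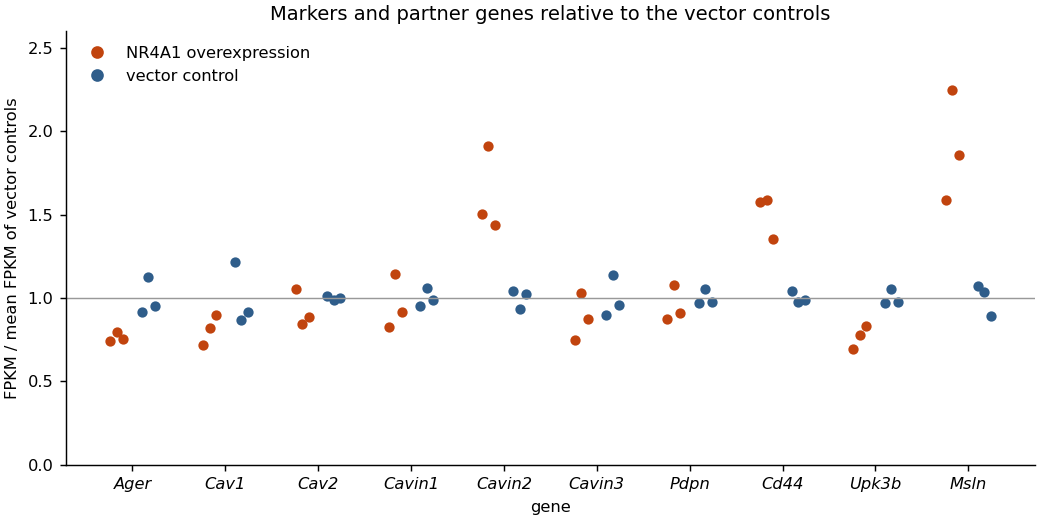
FPKM of markers and partner genes in each library, divided by the mean of the vector controls (line at 1), with NR4A1 overexpression and vector control as separate points. Sdpr and Cd44 have every NR4A1 library above every vector control, and Ager has every NR4A1 library below.

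Markers of other cell types were set beside these results, since Cav1, Cav2 and Pdpn are not particular to AT1 cells. In NR4A1 overexpression replicate 2, 11 of 12 endothelial genes were at their highest, and 5 of them had counts in that library alone. Cdh5, the cadherin of endothelial junctions, had 419 counts there and 0 in the other 5 libraries. The summed endothelial level was 172 CPM in that library and between 15.7 and 19.4 CPM in the others, and the summed level of the 8 smooth muscle genes, all 8 highest there, was 354 against 20.3 to 29.1 CPM. The 3 lymphatic endothelial genes that were counted summed to 12 CPM there and to between 0.809 and 1.22 CPM elsewhere, with Mmrn1 and Reln at 0 in all libraries. The 10 fibroblast genes summed to 1593 CPM in that library and to between 946 and 1070 CPM in the others, most of it Dcn (452 FPKM). Of the 10 fibroblast genes, 7 were highest in NR4A1 overexpression replicate 2. Vector control replicate 1 also stood apart in the collagens and Pdgfra given below. Lum (between 48 and 75 counts per library) and Fbln1 (between 359 and 493), named after their values were seen, showed neither pattern. Col1a1 had 4189 counts in NR4A1 overexpression replicate 2, 303 in vector control replicate 1 and between 84 and 124 in the other libraries, and Col1a2 had 4504, 284 and between 10 and 45. Pdgfra, which like Col1a2 was named after its values were seen, had 611, 92 and between 12 and 18. Vector control replicate 1 is also the library with the highest Cav1 level, and the part of these markers in it was not tested. The summed level of the 6 AT1 members was not highest in NR4A1 overexpression replicate 2. It was 667, 596 and 595 CPM with NR4A1 and 717, 668 and 663 CPM with vector. Cav2 was the largest part of this sum (mean 258 CPM with NR4A1). A share of other cells in a member such as Pdpn (39.5 CPM) cannot be read from it. Of the 6 members, 1 (Pdpn) was highest in NR4A1 overexpression replicate 2. Without that library the log2 fold changes were −0.29 for Cav1 and −0.02 for Cav2. The part of these other cell markers in the levels of Sdpr and S100a4 was not tested.

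Of 6 mesothelial genes, 5 were tested and 3 had a mean of at least 1 FPKM, while Upk1b had at most 11 counts per library. Every NR4A1 library was above every vector control for Msln and Gpm6a and below every one for Upk3b. Of all genes tested, 6.69% and 6.22% showed these orders. Gpm6a was named after its values were seen. The sum of the 6 genes was 182, 203 and 214 CPM with NR4A1 and 228, 242 and 229 CPM with vector. It was thus lower in every NR4A1 library. Most of it came from Upk3b, with 2086, 2641 and 2889 counts with NR4A1 and 3347, 3502 and 3443 with vector (log2 fold change −0.36, adjusted p = 0.313, edgeR quasi-likelihood test, and −0.37 without NR4A1 overexpression replicate 2). DESeq2 gave Upk3b an adjusted p of 0.035 and edgeR's exact test one of 0.193. Msln, named after its values were seen, went the other way, with 312, 496 and 421 counts against 241, 225 and 206 (log2 fold change 0.94, SE 0.146, adjusted p = 0.0742, edgeR quasi-likelihood test). It was 0.80 (adjusted p = 0.0853) without NR4A1 overexpression replicate 2, and with all libraries its adjusted p was 4.99e-05 with DESeq2 and 0.000351 with edgeR's exact test, at less than 2-fold. Immune genes summed to at most 4.53 CPM.

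**Figure D5:**
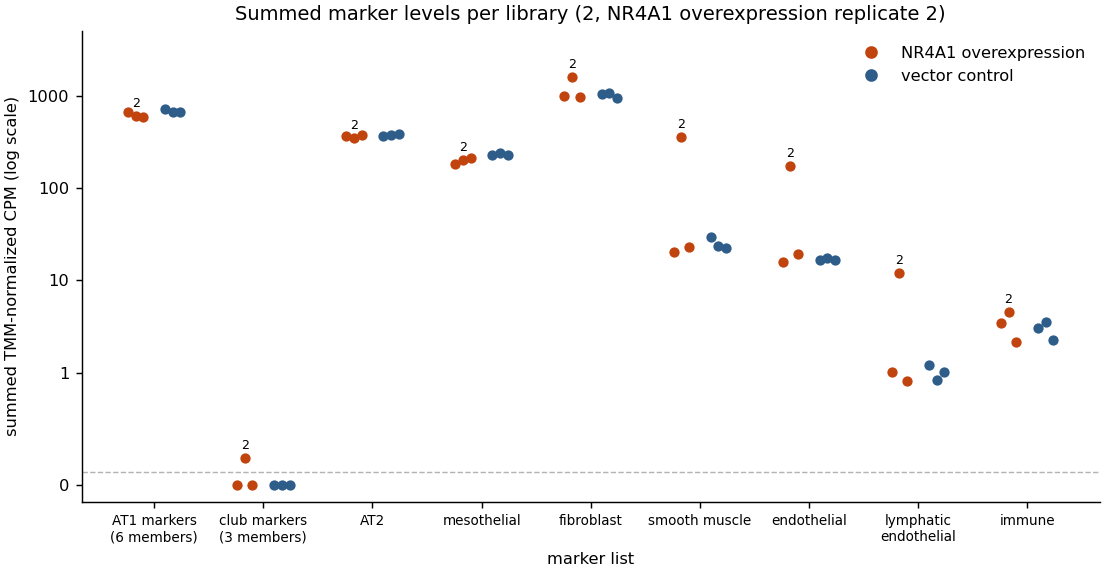
Summed TMM-normalized CPM (log axis) of each marker list in each library, with NR4A1 overexpression replicate 2 marked 2. The endothelial and smooth muscle sums of that library, 172 and 354 CPM, lie above those of the other 5 libraries, and its AT1 member sum of 596 CPM lies among the others.

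The genes whose pattern over the 6 libraries was most like that of each tested member were found by the root mean square difference of centred log2 CPM, as a description over 6 libraries. For Ager they were Paqr4 (0.048), Slc25a10 (0.0508) and Tfpt (0.0532), against a root mean square of 0.2 for Ager about its own mean. For Aqp5 the nearest was Becn1 (0.0219), for Pdpn Sdhaf4 (0.00864), for Cav1 Plekhn1 (0.0486), for Cav2 Elovl4 (0.023), for Rtkn2 Lurap1 (0.0325) and for Foxj1 Tpra1 (0.0609). No member was among the 3 nearest genes of another member, and Cav1 and Cav2, though neighbours on the chromosome, were not among each other's nearest genes. Each set of 3 was drawn from all genes tested, so this does not tell whether members vary together.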

How the data were processed

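Per the labels, total RNA of MLE-12 cells was sequenced in 3 libraries with the NR4A1 overexpression plasmid and 3 with the vector. The submitters' processing notes name HISAT2 2.0.4 and GRCm38 p4. The counting program, annotation release and filters are not given in the sources used here. The authors deposited a count per gene and library and the FPKM made from it. The counts returned the FPKM once divided by the library total and a fixed length per gene (10738 genes, largest median deviation 2.29e-05%).

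Counts were normalized with TMM factors, filtered with filterByExpr and tested with the quasi-likelihood test of edgeR 4.0.16 (R 4.3.3), group as the single term, with Benjamini-Hochberg adjustment over 12941 genes. A call needed an adjusted p under 0.05 and at least 2-fold. Standard errors and intervals came from the same fit. Total counts were between 15019038 and 17574340. No 2 libraries of the same group agreed within sampling noise. The script was tested on simulated data. Alternatives were DESeq2 1.42.0, limma 3.58.1 (voom, and log2(FPKM + 1) and log2(FPKM + 0.1)), other scalings and filters, the replicate block and each library left out. Promoters are RefSeq windows.

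The members and gene lists were chosen with earlier results of these data known. Named genes are the members, Nr4a1, their neighbours, the 3 nearest by pattern, and from each list the called and the 3 most abundant genes. Genes named for having few or 0 counts, and others so marked, were chosen after their values were seen. Some list results are not reported here.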

Additional observations from a re-analysis of the deposited data

How the results depend on the processing

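None of the members that could be tested was called in either direction under any alternative run. Scgb1a1 and Scgb3a2 have no value in any, and Foxj1 has one in 13 of 16. Cyp2f2 entered only the fit without a filter on low counts, where it was not called, and its value there is not reported here. The log2 fold change of Ager lay between −0.41 and −0.27 over 16 alternatives, with adjusted p between 0.108 (DESeq2) and 0.922. The range was −0.13 to 0.06 for Aqp5, −0.14 to 0.01 for Pdpn, −0.27 to 0.08 for Rtkn2, −0.37 to −0.11 for Cav1, −0.19 to −0.02 for Cav2 and 0.17 to 0.49 for Foxj1. The sign changed for Aqp5 without NR4A1 overexpression replicate 3 (0.04) and without vector control replicate 1 (0.06), for Pdpn without NR4A1 overexpression replicate 1 (0.01) and for Rtkn2 without NR4A1 overexpression replicate 2 (0.08). The median of all genes moved by at most 0.03 under any scaling or filter.

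The count of all genes called moved more. Against 22 higher and 0 lower, DESeq2 called 71 and 2, edgeR's exact test 67 and 1, and an unadjusted p under 0.05 with at least 2-fold 144 and 17. A mean of at least 10 counts gave 8 higher, log2(FPKM + 1) 7 and log2(FPKM + 0.1) 8, and dropping the fold threshold gave 1 lower. Leaving out 1 library gave between 3 and 25 higher and between 0 and 3 lower. Every library but NR4A1 overexpression replicate 2 took the higher count to 6 or fewer when left out. Of the list genes, Vwf was called higher by DESeq2 (1) and S100a4 by the exact test (1, adjusted p = 0.0142). An unadjusted p called 4 higher (S100a4, Vwf, Eng and Acta2) and 1 lower (Ces1d), and with the quasi-likelihood test 0 were called. The cause was not tested.

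Same-numbered libraries had correlations of their deviations of −0.0111, −0.046 and 0.246, so the numbers were not taken as pairs. Adding a replicate block to the fit left 5 genes called higher and 0 lower, and 0 members (Ager −0.36, adjusted p = 0.28).

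The results for the club cell markers and Foxj1 hold at the depth of these libraries. Whether more reads would change them was not tested.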
